A study of Homo sapiens with 12 samples.

Results

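The stretch of chromosome 11 between the tip of its short arm and CD44 was examined gene by gene in CD44 knockout (KO) and CD44 wild type (WT) breast cancer cells. A gene belonged to it when its last base lay below the start of CD44 in GRCh38 (chr11:35138870-35232402, plus strand), which held for 866 of the 58381 genes counted. The stretch was chosen by the measured values of 1 comparison, the low median of its genes in MDA-MB-231 CD44 KO cells. Values of that comparison, with its counts of genes called, are therefore given as a description that supports nothing further. P-values of single genes are given for Hs578T only.

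Hs578T and MDA-MB-231 are established triple negative breast cancer cell lines that carried a doxycycline-inducible Cas9. CD44 KO cells had received 2 guides against CD44, while CD44 WT cells had received the transfection reagent alone, so that guide delivery and loss of CD44 cannot be told apart. Cells were sorted as live CD29+ CD44- (CD44 KO) or CD29+ CD44+ (CD44 WT) populations and not as single clones, and were kept in low serum before RNA was taken. Each of the 4 groups, CD44 WT and CD44 KO of each line, had 3 libraries of polyadenylated RNA.

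The short arm of chromosome 11 carries genes that nearly every cell uses, among them genes for ribosomal proteins, lactate dehydrogenase and catalase, beside clusters of tissue-restricted genes such as the globins and olfactory receptors. It also holds the IFITM and TRIM genes of antiviral defence and an imprinted domain, in which one parental copy of a gene is silent. RNA levels tend to follow the number of gene copies, although regulation of a single gene can offset or add to such a difference. DNA copy number was not part of these data, and in bulk RNA fewer cells that express a gene and less RNA per cell cannot be told apart.

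Distances from CD44 are counted from its start, except those to the nearest tested genes in this paragraph, which are counted from the expected cuts. The guide target sites lie inside CD44, past the end of the stretch. Both were found on the minus strand of GRCh38, with the protospacer in lower case and the adjoining AGG motif that Cas9 needs in capitals.
CD44 exon 1 site, chr11:35139360-35139379: ggcactcaccgatctgcgccAGG
CD44 exon 5 site, chr11:35190030-35190049: gtctgtgctgtcggtgatccAGG
The expected cuts lie after bases 35139362 and 35190032. The nearest tested gene toward the telomere, PDHX, ends 118.77 kb from the exon 1 cut, and the nearest on the other side, SLC1A2, starts 61.173 kb from the exon 5 cut.

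Total counts per library ranged from 10257586 to 19725543. CD44 itself was counted 5919 to 7602 times in Hs578T CD44 WT and 292 to 464 times in Hs578T CD44 KO, and 4036 to 4472 times in MDA-MB-231 CD44 WT against 304 to 611 times in MDA-MB-231 CD44 KO. The intermediate filament gene VIM was read at 3869 to 6950 CPM (counts scaled to library size), and the epithelial keratins KRT8 and KRT18 at 257.5 to 622.0 and 368.2 to 698.5 CPM. The receptors behind the name triple negative were ESR1, at most at 1.194 CPM, PGR, with no count, and ERBB2, at 54.95 to 104.2 CPM. The leukocyte marker PTPRC reached at most 4.993 CPM and the endothelial marker PECAM1 at most 15.4 CPM. MDA-MB-231 CD44 WT replicate 1 stood apart from the other CD44 WT libraries of its line. Its counts differed from theirs with a chi-square of 21.09 and 32.28 per degree of freedom, while the others differed from each other with 6.138. Part of the MDA-MB-231 values are therefore also given without it. The medians of the gene lists and the values of many single genes are given only with it. Among these are RPLP2, PSMD13, CTSD and POLR2L, which had their highest MDA-MB-231 CD44 WT count in that library. In the same way MDA-MB-231 CD44 KO replicate 1 differed from its group with 12.77 and 16.14 (6.132 between the others) and Hs578T CD44 WT replicate 3 with 15.12 and 9.956 (4.633 between the others). With each of these left out alone, the median log2 fold change of the stretch was -0.56 in MDA-MB-231 and 0.095 in Hs578T, against -0.57 and 0.08 with them. The libraries that stood apart carry close numbers in the column headers, and what those numbers stand for is not stated. Hs578T CD44 KO replicate 1, numbered among them, did not stand apart (7.303 and 6.443, against 11.97 between the others). Values given without MDA-MB-231 CD44 WT replicate 1 keep CD44 KO replicate 1, and no fit left out both. Values of MDA-MB-231 CD44 WT are listed in the order replicate 1, replicate 3 and the library whose label gave no clear number.

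Of the 866 genes, 421 had no count in any library and 225 were tested, with 2 libraries or more above 1 CPM and a length of at least 300 nt. The 641 genes that were not tested held 1390 counts in all Hs578T CD44 WT libraries together and 860 in all MDA-MB-231 CD44 WT libraries. The tested genes included 187 protein-coding genes. In MDA-MB-231, 9 of the tested genes had no count at all, and their fitted change there is 0 by construction.

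The stretch gave less of the RNA in MDA-MB-231 CD44 KO cells and not in Hs578T CD44 KO cells. In MDA-MB-231 CD44 WT, its genes took 1.7236%, 1.7496% and 1.8501% of all counts, and in CD44 KO 1.2098%, 1.2695% and 1.2105%, a ratio of the means of 0.6931. In Hs578T the shares were 2.2713%, 2.3181% and 2.4112% in CD44 WT and 2.436%, 2.4631% and 2.4436% in CD44 KO, a ratio of 1.049. The groups did not overlap in either line, with CD44 KO below CD44 WT in MDA-MB-231 and above it in Hs578T.

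The median gene was shifted by a like amount in every library of a group. In each library, the median log2 difference of the 225 tested genes from the CD44 WT libraries of its line was taken relative to that of all genes tested. It was -0.51, -0.51 and -0.46 in the MDA-MB-231 CD44 KO libraries and between -0.02 and 0.03 in the CD44 WT libraries. The CD44 KO mean was -0.494 ± 0.0264 (SD, n = 3). The 646 tested genes on the rest of chromosome 11 had shifts of -0.033 to -0.0016 in the same CD44 KO libraries, inside the range of -0.09 to 0.11 in CD44 WT. In Hs578T CD44 KO the stretch was shifted by 0.05 to 0.10, above the CD44 WT range of -0.03 to 0.02, and the rest of the chromosome by 0.02 to 0.07.

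**Figure D1:**
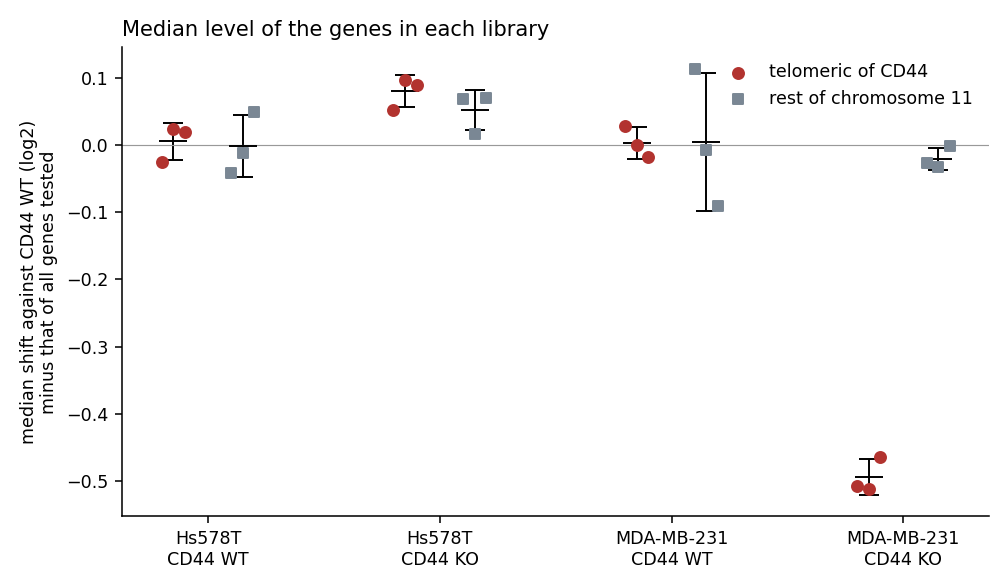
The vertical axis shows the median log2 difference of each library from the CD44 WT libraries of its line, relative to all genes tested, for genes telomeric of CD44 (circles) and for the rest of chromosome 11 (squares), with mean and SD in black (n = 3). Only the circles of the MDA-MB-231 CD44 KO libraries lie near -0.5.

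Per gene, log2 fold changes are given for CD44 KO relative to CD44 WT, and their median in MDA-MB-231 was -0.57, with quartiles of -0.84 and -0.26, which is a ratio of 0.673 on the linear scale. On the rest of chromosome 11 it was -0.04 and on the other chromosomes -0.0035. In CD44 KO, 198 of the 225 genes lay below 0 (88.0%), against 50.5% of the genes outside chromosome 11. Calls rest on edgeR's quasi-likelihood test with a threshold of 0.01 on the p adjusted after Benjamini and Hochberg over all 15836 genes tested. By these, 79 genes of the stretch were called lower, beside 2.65% of all genes tested, and 0 higher, beside 1.97% of all genes tested; 2 were higher at an unadjusted p under 0.05 and DESeq2 called 0 higher. With a direction that the choice of the stretch fixed, these counts support nothing further. All CD44 KO libraries lay below all CD44 WT libraries for 133 genes (13.7% of all genes tested), and above them for 2, DENND2B and the pseudogene CBX3P1 (11.8% of all genes tested).

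The windows before CD44 had lower medians in MDA-MB-231 than those of at least 20 genes past it. In windows of 5 Mb from the telomere, the MDA-MB-231 medians were -0.74 (64 genes), -0.60 (52 genes), -0.34 (26 genes), -0.48 (30 genes), -2.01 (8 genes), -0.40 (14 genes) and -0.41 (31 genes). The 12 windows of at least 20 genes past CD44 had medians of -0.12 to 0.08. In Hs578T, the windows of at least 20 genes ranged from 0.06 to 0.11 before CD44 and from -0.00088 to 0.13 past it. When the tested genes of the chromosome with at least 5 CPM were split at the single point that best separated 2 levels in MDA-MB-231, the point fell between NAT10 and ABTB2, at 34147670 to 34150988, with a median of -0.57 before it and -0.03 after it. That point lies 0.988 Mb short of CD44, and it describes the values by which the stretch was chosen. The same split in Hs578T fell between PLCB3 and BAD, far past CD44, with a median of 0.08 before it and 0.04 after it. Such a split returns a point in any data, and this one lowered the summed absolute deviation from the medians by only 0.34%.

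The slope within the stretch was shallower without 1 library, while the level stayed near that with it. Without MDA-MB-231 CD44 WT replicate 1, the median of the tested genes was -0.53, and the window medians were -0.61, -0.55, -0.41, -0.53, -1.97, -0.41 and -0.50. The Spearman correlation of the fold change with position over the 146 genes of at least 5 CPM was 0.44 with that library and 0.26 without it. The correlation with the GC content of the transcript was -0.39 with it and -0.20 without it, and over 10118 genes outside chromosome 11 it was -0.29 with it and -0.06 without it. Genes near the telomere were the richest in GC, with a median of 59.4% in the first window against 41.6% in the last. The points of these correlations are genes of the same libraries. Window medians without the trend on transcript GC are given further below as a description, and the part of base composition in the slope was not tested.

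**Figure D2:**
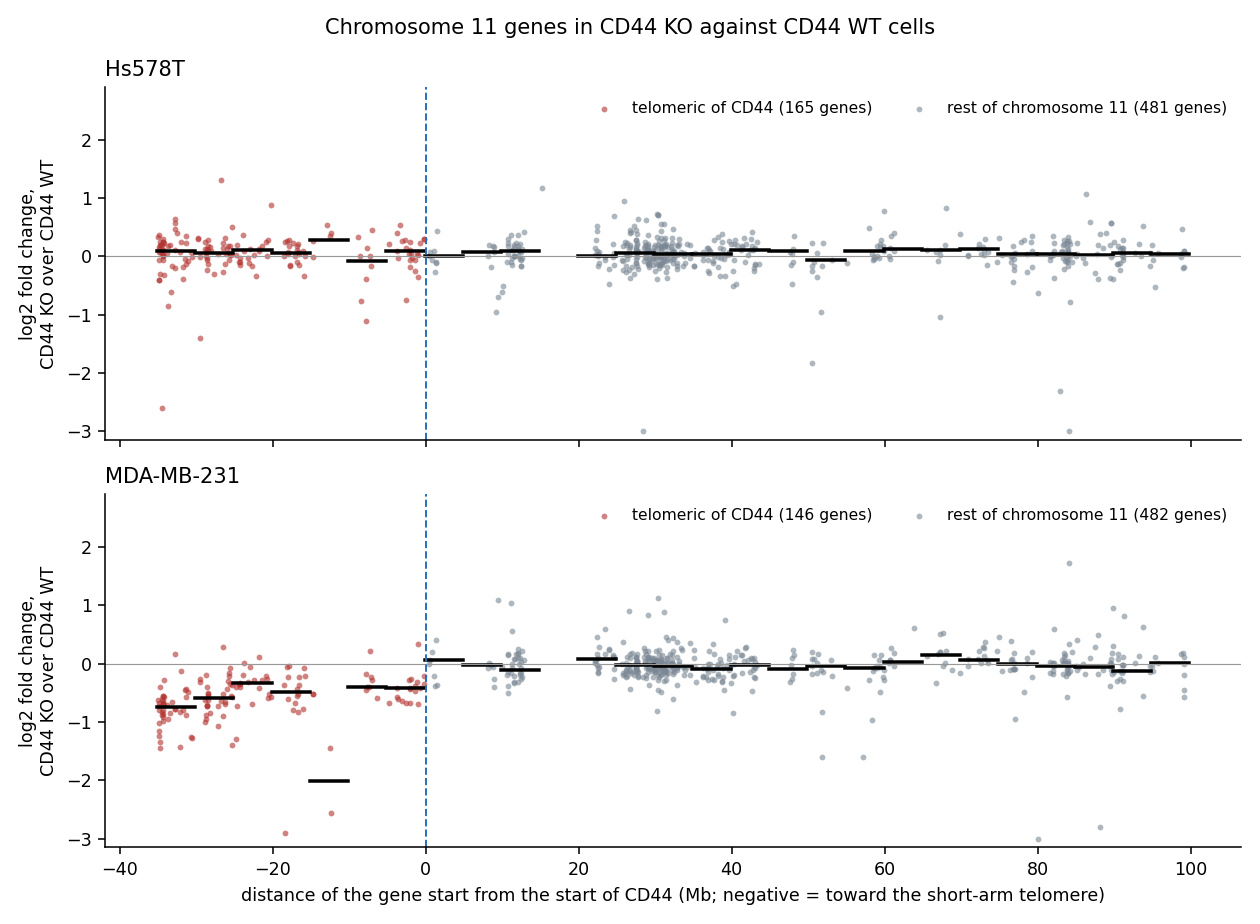
Each point is a gene of at least 5 CPM in the line, placed by the distance of its start from the start of CD44 in Mb, with its log2 fold change in CD44 KO on the vertical axis; black bars are medians of all tested genes in 5 Mb windows of at least 8 genes, and the dashed line is CD44. In MDA-MB-231 the windows left of CD44 lie at -0.34 or lower and those right of it near 0, while in Hs578T both sides lie near 0. Past CD44, 1 gene of MDA-MB-231 and 2 of Hs578T lie below -3 and are drawn at -3.

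Of the 5 tested genes nearest to CD44 inside the stretch, 3 had every CD44 KO library below every CD44 WT library in MDA-MB-231 (13.7% of all genes tested), against 1 of the 5 nearest outside, COMMD9. PDHX (chr11:34915829-35020591), a subunit of the pyruvate dehydrogenase complex and the last tested gene inside, was read at 59.0, 63.5 and 61.6 CPM in MDA-MB-231 CD44 WT and 52.2, 46.6 and 46.4 CPM in CD44 KO. Its log2 fold change was -0.34 (SE 0.09). The genes before it were APIP, an enzyme of methionine salvage, at -0.21 (SE 0.11; -0.13 without CD44 WT replicate 1), the transcription factor EHF, at under 1 CPM in every library of the line, at 0.70 (SE 0.51), and catalase (CAT) at -0.43 (SE 0.10). APIP and PDHX overlap at their ends on opposite strands, which the counting told apart. ABTB2, an ankyrin repeat protein, came next and is described with the genes that were not lower.

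Past CD44 the values lay on both sides of 0. FJX1 (chr11:35618419-35620868), a secreted regulator of planar cell polarity, was read at 71.0, 73.0 and 65.8 CPM in CD44 WT and 85.8, 63.9 and 60.2 CPM in CD44 KO, so the groups overlapped. TRIM44 stood at 0.05 (SE 0.11), LDLRAD3 at 0.20 (SE 0.11) and COMMD9 at -0.21 (SE 0.10). The glutamate transporter SLC1A2, the first tested gene outside, had at most 1 count in any MDA-MB-231 library and gives no information there.

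The median was below 0 in weakly and in strongly expressed genes, though fewer of the weak genes lay below 0. The 225 genes were divided into 3 equal groups by their mean log2 CPM over all 12 libraries. The MDA-MB-231 medians were -0.63 in the low, -0.63 in the middle and -0.52 in the high group, while the quartiles closed in from -1.47 and -0.03 to -0.86 and -0.27 and to -0.69 and -0.34. In the high group 74 of 75 genes lay below 0, the exception being HSP90AA2P, and in the low group 56 of 75 (74.7%). In the low range of expression on the rest of the chromosome, 58.6% of genes lay below 0. A weak gene can pass the filter on low counts through MDA-MB-231 CD44 WT alone. The part of this in the median of the low group was not tested. The median SE of a gene's fold change was 0.513 in the low and 0.104 in the high group, so the wide spread of the low group goes with a large error per gene. On the rest of chromosome 11, genes in the same ranges of expression had medians of -0.11, -0.05 and -0.01. Over the 146 genes of at least 5 CPM in the line, the Spearman correlation of the fold change with expression was 0.09.

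The genes of the stretch were shifted together but were less alike than the rest of the chromosome. Of these 146 genes, 85 (58.2%) lay within 0.25 of their median on the log2 scale, against 382 of 482 genes (79.3%) on the rest of the chromosome. Without CD44 WT replicate 1 the figures were 100 genes (68.5%) and 388 genes (80.5%). In the high group 53 of 75 genes lay within 0.25 of the median, and 64 without that replicate, with quartiles of -0.61 and -0.42. On the linear scale these quartiles are 65.4% and 74.8% of the CD44 WT level. Of the 146 genes, 126 lay between 0 and -1, 14 at -1 or lower and 6 at 0 or higher. The corresponding shares were 9.59% at -1 or lower and 4.11% at 0 or higher, against 0.830% and 44.6% on the rest of the chromosome and 0.837% and 49.2% over all genes tested at that level.

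**Figure D3:**
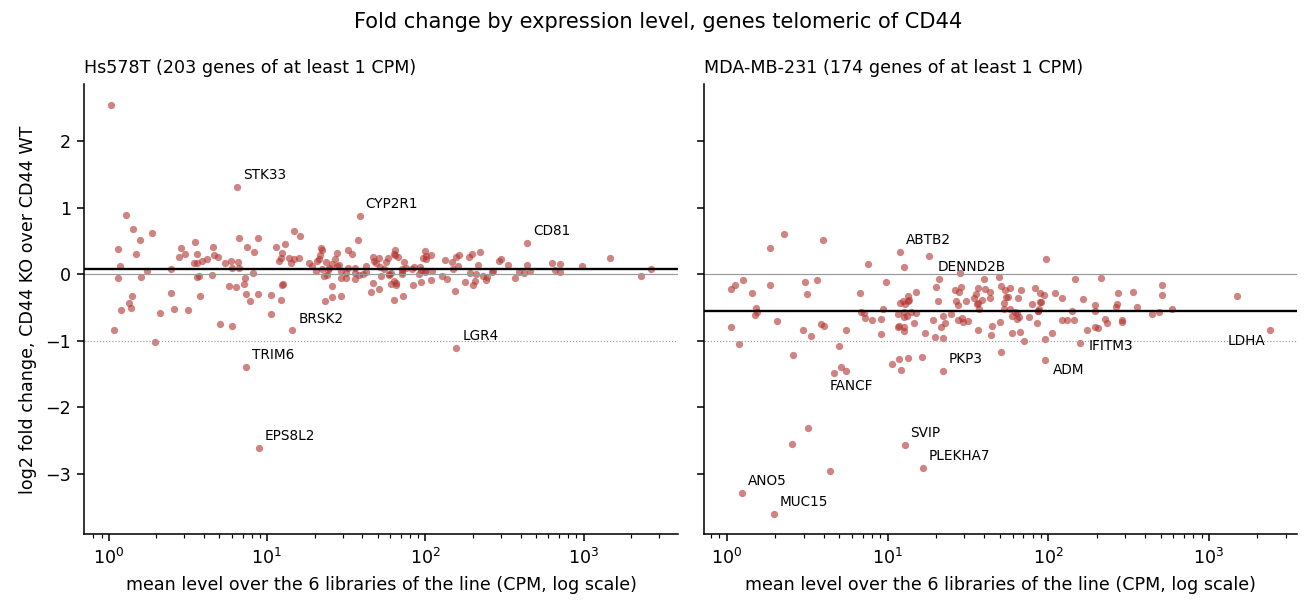
Log2 fold change in CD44 KO for genes telomeric of CD44 against their mean CPM in the line, from 1 CPM up, with the median of genes of at least 5 CPM as a black line and -1 as a dotted line. In MDA-MB-231 the points close around -0.56 toward high expression, with SVIP and PLEKHA7 far below and ABTB2 and DENND2B above 0.

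Among the genes far below the others, PLEKHA7 (chr11:16777317-17014443), a protein of the adherens junction, was the lowest of at least 5 CPM. It was read at 33.7, 26.4 and 27.8 CPM in MDA-MB-231 CD44 WT and 3.13, 3.92 and 4.64 CPM in CD44 KO, a log2 fold change of -2.91 (SE 0.24). The groups lay far apart, and its neighbours did not share the size of the difference. RPS13, a ribosomal protein gene next to it, stood at -0.60 (SE 0.10). In Hs578T PLEKHA7 was read at 7.28 to 14.8 CPM in CD44 WT and 11.2 to 15.9 CPM in CD44 KO, which overlap.

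SVIP and FANCF are neighbours. SVIP (chr11:22813799-22830299), an inhibitor of degradation of proteins from the endoplasmic reticulum, was read at 24.4, 22.0 and 18.98 CPM in CD44 WT and 4.74, 2.75 and 3.85 CPM in CD44 KO, a log2 fold change of -2.56 (SE 0.18). FANCF (chr11:22622519-22626787), a component of the Fanconi anaemia core complex of DNA repair, was read at 7.46, 9.002 and 7.48 CPM in CD44 WT and 2.71, 2.49 and 3.75 CPM in CD44 KO, a log2 fold change of -1.45 (SE 0.17). Both were lower by more than the stretch as a whole in every CD44 KO library.

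They belong to a run of genes with the largest differences, which was picked out after its values were seen. Between PRMT3 (-0.53, SE 0.10) and CCDC34 (-0.46, SE 0.12), 6.822 Mb apart, lie 53 genes of which 10 were tested and 4 reached a mean of 1 CPM in MDA-MB-231. These were ANO5, FANCF, SVIP and MUC15, with log2 fold changes of -3.60 to -1.45. ANO5 passed the filter on low counts only through its level in MDA-MB-231 CD44 WT, so that its lower level in CD44 KO follows from the filter. The mucin gene MUC15 was counted 129 times in the CD44 WT libraries together and 12 times in CD44 KO, and ANO5, a membrane protein of the anoctamin family, 79 and 9 times. ANO3, of the same family, was counted 59 times and 1 time, although MUC15 lies within it on the other strand. All 53 genes together held 469, 486 and 391 counts in CD44 WT and 90, 114 and 91 in CD44 KO. In Hs578T the run was counted 1287 to 1648 times in CD44 WT and 1416 to 2090 times in CD44 KO, so it was not lower there.

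Of the 14 genes at -1 or lower, 8 lay in the first 5 Mb, which held 43 of the 146 genes of at least 5 CPM. The median of that window was itself the lowest of the windows with 20 genes or more. It was -0.74, or -0.61 without CD44 WT replicate 1. PKP3 (chr11:392614-404908), a plakophilin of desmosomes, was read at 36.7, 29.9 and 30.9 CPM in CD44 WT and 10.8, 11.8 and 13.1 CPM in CD44 KO, a log2 fold change of -1.45 (SE 0.11). CARS1, the cysteine tRNA ligase, varied more, with 20.2, 13.4 and 19.9 CPM in CD44 WT and 3.22, 8.85 and 7.21 CPM in CD44 KO, a log2 fold change of -1.44 (SE 0.37). The long noncoding RNA LINC02709 stood at -1.39 (SE 0.19). Besides these named by rank, the 14 held B4GALNT4, ADM, TRIM68, TRIM21, PGGHG, IFITM2, TUB and IFITM3. Without CD44 WT replicate 1 there were 13, as IFITM3 and TUB left and NAP1L4 entered.

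Only 6 of the 146 genes did not lie below 0. ABTB2 (chr11:34150988-34358008) was read at 9.60, 10.9 and 11.3 CPM in CD44 WT and 10.9, 15.04 and 14.02 CPM in CD44 KO, a log2 fold change of 0.34 (SE 0.14), with overlapping groups. DENND2B (chr11:8693351-8910951), an activator of Rab GTPases, was read at 18.9, 14.9 and 15.6 CPM in CD44 WT and 19.1, 19.2 and 21.7 CPM in CD44 KO, a log2 fold change of 0.28 (SE 0.13). Its libraries were just apart, and without CD44 WT replicate 1 the value was 0.39 and that of ABTB2 0.27. BMAL1, a core transcription factor of the circadian clock, stood at 0.11 (SE 0.21) and at -0.0024 without that replicate.

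The other 3 are copies of genes elsewhere in the genome. HSP90AA2P (0.22, SE 0.15; 0.12 without CD44 WT replicate 1) and RPL26P30 (0.16, SE 0.38; 0.69 without it) are processed pseudogenes of a heat shock protein and a ribosomal protein gene, and CSNK2A3 (0.01, SE 0.15) is an intronless gene close in sequence to casein kinase II alpha. CSNK2A3 stood at -0.18 without that replicate. The 4 processed pseudogenes of the stretch with at least 5 CPM lay between -0.07 and 0.22, and between 0.037 and 0.69 without it, when RPL23AP65 and RPL36AP37 were above 0 as well. One of them, RPL36AP37, had the highest level per length of the stretch at 524 RPKM (CPM per kilobase of exon length), with 180, 133 and 140 CPM in CD44 WT and 153, 139 and 140 CPM in CD44 KO. Fragments from near-identical copies can be split between loci, so the counts of these 4 and of CSNK2A3 are uncertain.

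**Figure D4:**
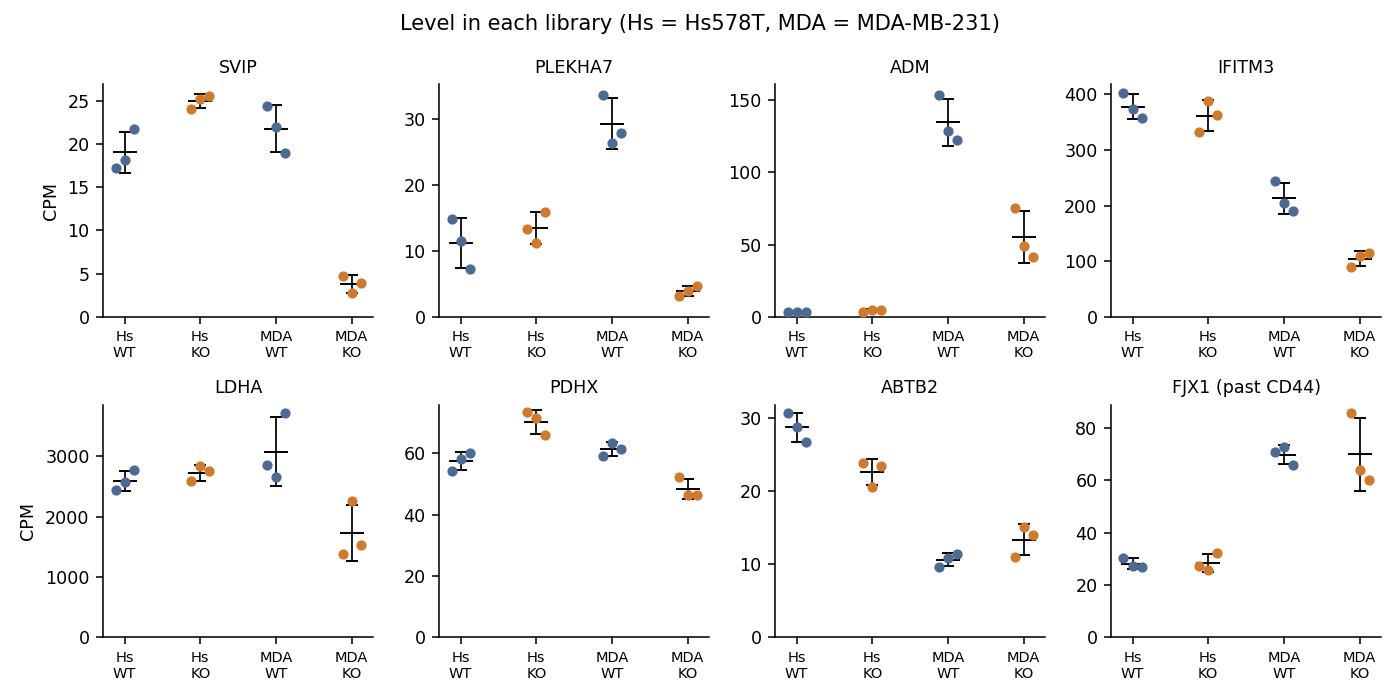
CPM in each library (points, mean and SD in black, n = 3) for SVIP, PLEKHA7, ADM, IFITM3, LDHA, PDHX and ABTB2, which lie telomeric of CD44, and for FJX1, which lies past it. In MDA-MB-231 the CD44 KO points lie below CD44 WT for the first 6 genes and overlap CD44 WT for ABTB2 and FJX1.

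Grouped by function, each list with at least 3 genes of 5 CPM had its median in MDA-MB-231 below 0. The lists were chosen with earlier results of these data known, and their counts are a description. They are to be read beside the 35.1% of the stretch's tested genes and the 2.65% of all genes tested that were called lower. The lowest median was that of the interferon and TRIM genes. All 10 tested were below 0, 7 were called lower and the median was -1.09, against -0.57 over all tested genes of the stretch. Over the 8 of at least 5 CPM the list median was -0.96. All 10 lie in the first 10 Mb, where the window medians were -0.74 and -0.60, and the part of position in the list median was not tested. IFITM3 (chr11:319669-327537), which blocks entry of viruses at endosomes, was read at 244, 205 and 190 CPM in MDA-MB-231 CD44 WT and 88.9, 110 and 114 CPM in CD44 KO, a log2 fold change of -1.03 (SE 0.11). IFITM2, a close relative, stood at -1.16 (SE 0.15). IFITM1, IFITM2 and IFITM3 are near copies and IFITM1 overlaps IFITM2, so their counts are uncertain. TRIM21, an antibody receptor of the cytosol, and TRIM68 stood at -1.25 (SE 0.15) and -1.27 (SE 0.14), while TRIM5, a retrovirus restriction factor, stood at -0.26 (SE 0.17), or at -0.48 without CD44 WT replicate 1.

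All 12 translation genes were below 0 and 8 were called lower, with a median of -0.63. RPLP2, an acidic ribosomal protein, was read at 701, 524 and 516 CPM in CD44 WT and 393, 405 and 382 CPM in CD44 KO, a log2 fold change of -0.56 (SE 0.11). EIF4G2, a translation initiation factor, stood at -0.33 (SE 0.09). All 9 genes of ubiquitin and the proteasome were below 0 and 5 were called lower, with a median of -0.52; PSMD13, a subunit of the proteasome's regulatory particle, stood at -0.73 (SE 0.11) and TSG101, of the ESCRT-I sorting complex, at -0.52 (SE 0.08). TSG101 was read at 102, 104 and 104 CPM in CD44 WT and 72.5, 71.6 and 72.5 CPM in CD44 KO.

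Metabolic genes had a median of -0.57, with all 9 below 0 and 4 called lower. LDHA (chr11:18394388-18408425), the lactate dehydrogenase subunit that converts pyruvate to lactate, was the most abundant by CPM of those named, at 2853, 2659 and 3729 CPM in CD44 WT and 1387, 2259 and 1533 CPM in CD44 KO. Its log2 fold change was -0.84 (SE 0.16). TALDO1, an enzyme of the pentose phosphate pathway, stood at -0.80 (SE 0.15), and at -0.55 without CD44 WT replicate 1. Lysosome and vesicle genes had a median of -0.49, with all 8 below 0 and 4 called lower. The lysosomal protease CTSD stood at -0.84 (SE 0.16), and COPB1, a subunit of the COPI vesicle coat, at -0.27 (SE 0.09) with overlapping groups.

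Of 13 genes of the cell surface and adhesion, 12 were below 0 and 7 were called lower, with a median of -0.50; the exception, TSPAN32, had almost no counts. CD151, a tetraspanin that binds laminin-binding integrins, was read at 260, 233 and 204 CPM in CD44 WT and 147, 164 and 165 CPM in CD44 KO, a log2 fold change of -0.55 (SE 0.10). ILK, an adaptor between integrins and actin, stood at -0.50 (SE 0.08). All 7 genes of the cell cycle and DNA were below 0 and 3 were called lower, with a median of -0.49. RRM1, the large subunit of ribonucleotide reductase, stood at -0.49 (SE 0.08) and the mitotic kinesin KIF18A at -0.24 (SE 0.12), or at -0.39 without CD44 WT replicate 1.

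Of 9 genes of RAS and kinase signalling, all were below 0 and 3 were called lower, with a median of -0.65. CAVIN3, a coat protein of caveolae, stood at -0.996 (SE 0.11) and the RAS relative RRAS2 at -0.21 (SE 0.08). Transcription genes had a median of -0.49, with 17 of 20 below 0 and 6 called lower; POLR2L, a small subunit of the RNA polymerases, stood at -0.69 (SE 0.14) and TEAD1, the partner of YAP, at -0.28 (SE 0.17), or at -0.52 without CD44 WT replicate 1.

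Of 18 genes for secreted proteins 7 were tested, with a median of -0.39 and 1 called lower. ADM, the precursor of the vasodilator peptide adrenomedullin, was read at 153, 128 and 122 CPM in CD44 WT and 75.2, 48.8 and 41.6 CPM in CD44 KO, a log2 fold change of -1.29 (SE 0.18). NUCB2, the precursor of nesfatin, stood at -0.05 (SE 0.12), or at -0.13 without CD44 WT replicate 1. Of 14 imprinted genes 6 were tested, all below 0, with 1 called lower and a median of -0.84. ZNF215, a zinc finger protein, stood at -0.85 (SE 0.14), whereas WT1 had at most 0.257 CPM in any MDA-MB-231 library. The imprinted growth genes H19, IGF2, CDKN1C and PHLDA2 had at most 5 counts in any library. Fragments of low mapping quality or on more than 1 gene were not counted, and their part in these low counts was not tested.

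**Figure D5:**
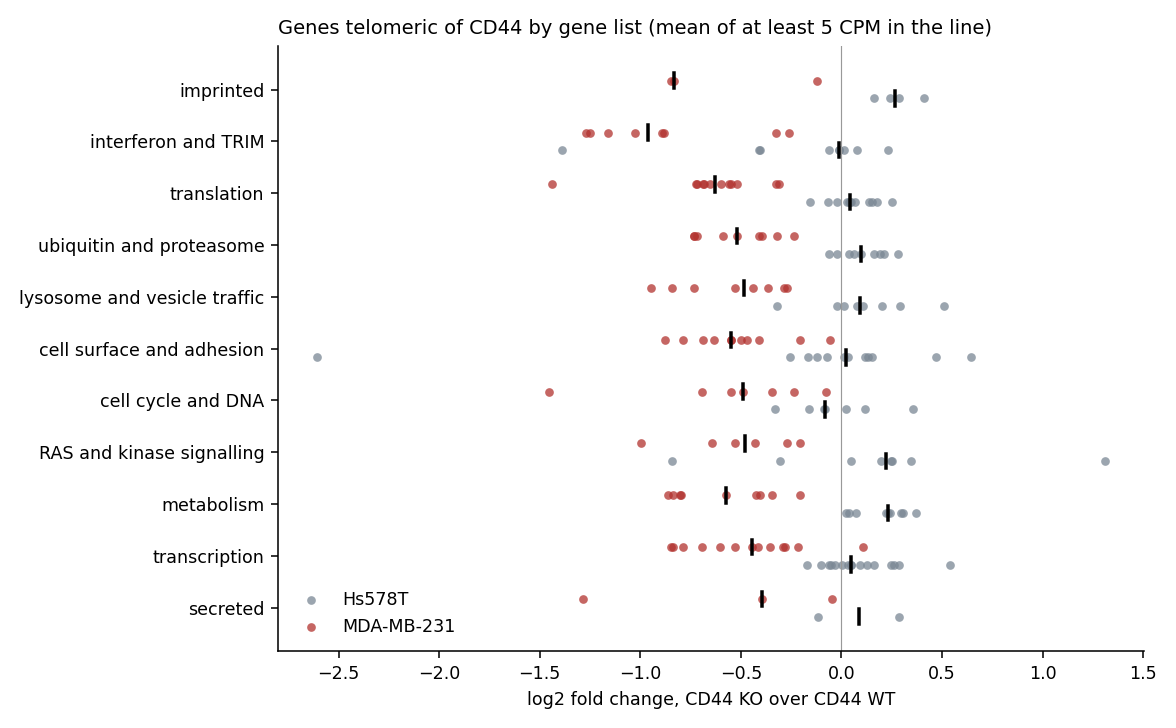
Log2 fold change in CD44 KO for each gene of at least 5 CPM in the line, by gene list, with list medians as black bars. The MDA-MB-231 medians all lie left of 0, lowest for interferon and TRIM genes at -0.96, and the Hs578T medians of the lists drawn lie between -0.08 and 0.27.

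In Hs578T, where the choice of the stretch used no values, 4 genes were called lower, beside 3.86% of all genes tested, and 4 higher, beside 3.64% of all genes tested. Those are 1.78% of the 225 genes in each direction, below the background of the whole table. The median log2 fold change was 0.08 with quartiles of -0.10 and 0.25, and 0.05 on the rest of the chromosome. All CD44 KO libraries lay below all CD44 WT libraries for 31 genes (18.6% of all genes tested) and above them for 55 genes (18.7% of all genes tested), which are 13.8% and 24.4% of the 225. On the rest of chromosome 11 these shares were 10.06% and 21.05%, so the tilt was not particular to the stretch.

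EPS8L2, an adaptor that links growth factor receptors to actin, fell most. It was read at 18.4, 20.2 and 7.28 CPM in Hs578T CD44 WT and 2.57, 2.096 and 2.99 CPM in CD44 KO, a log2 fold change of -2.61 (SE 0.30, adjusted p = 3.77e-05, edgeR). TRIM6, an E3 ubiquitin ligase, fell from 11.998, 10.04 and 9.90 CPM to 3.85, 4.81 and 3.41 CPM (adjusted p = 7.51e-05, edgeR), a log2 fold change of -1.39 (SE 0.18). LGR4, a receptor for R-spondins that strengthens Wnt signalling, fell from 227, 219 and 201 CPM to 84.4, 111 and 103 CPM (adjusted p = 0.000682, edgeR), a log2 fold change of -1.11 (SE 0.18). BRSK2, a kinase of neuronal polarity, fell by 0.84 on the log2 scale (SE 0.13, adjusted p = 0.000563, edgeR). BRSK2 was also called lower in MDA-MB-231, the comparison by which the stretch was chosen. There it was read at 7.28, 7.38 and 5.88 CPM in CD44 WT and 2.63, 2.28 and 2.47 CPM in CD44 KO.

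STK33, a serine and threonine kinase, rose most among genes of at least 5 CPM. It was read at 4.58, 4.52 and 2.03 CPM in CD44 WT and 8.02, 9.62 and 10.2 CPM in CD44 KO, a log2 fold change of 1.31 (SE 0.22, adjusted p = 0.000927, edgeR). CYP2R1, the vitamin D 25-hydroxylase, rose from 25.2, 30.3 and 26.2 CPM to 44.1, 59.4 and 45.7 CPM (adjusted p = 0.00293, edgeR), a log2 fold change of 0.87 (SE 0.17). CD81, a tetraspanin, rose from 323, 380 and 403 CPM to 491, 528 and 512 CPM (adjusted p = 0.00721, edgeR), a log2 fold change of 0.47 (SE 0.11). The CD81 call was lost when any 1 Hs578T library other than CD44 WT replicate 3 was left out, with adjusted p of 0.01902 to 0.0503 (edgeR), and without 1 of 2 MDA-MB-231 libraries, with 0.01039 and 0.01172. That of CYP2R1 was lost without Hs578T CD44 WT replicate 1 or CD44 KO replicate 2, with 0.02063 and 0.02395 (edgeR). The neurotrophin gene BDNF, at a mean of 0.840 CPM, was the other gene called higher.

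The 6 lowest genes of MDA-MB-231 had log2 fold changes of 0.07 to 0.39 in Hs578T, where none of them passed the test. SVIP was read at 17.2, 18.2 and 21.8 CPM in Hs578T CD44 WT and 24.1, 25.3 and 25.6 CPM in CD44 KO, a log2 fold change of 0.39 (SE 0.15, adjusted p = 0.0998, edgeR). Of 225 genes, 37 had all CD44 KO libraries below CD44 WT in MDA-MB-231 but above it in Hs578T (16.4%, beside 2.61% of all genes tested), and 18 had them below in both lines (8.0%, beside 2.95%). The MDA-MB-231 side of these counts is the one the stretch was chosen by.

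Of the 69 olfactory receptor genes of the stretch, 18 had a count in any library and 3 were tested. OR51B5 was read at 50.7, 63.8 and 55.8 CPM in Hs578T CD44 WT and 68.2, 66.7 and 74.4 CPM in CD44 KO, a log2 fold change of 0.30 (SE 0.12, adjusted p = 0.119, edgeR), and it had 1 count at most in any MDA-MB-231 library. OR51B4, beside it, was read at 10.1 to 12.1 CPM in Hs578T CD44 WT and 12.6 to 15.5 CPM in CD44 KO. The globin genes HBE1 and HBG2 reached at most 5.94 CPM in Hs578T and 0.0530 CPM in MDA-MB-231. Their annotated transcripts overlap those of OR51B5 on the same strand, so that counts of these genes are uncertain.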

How the data were processed

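The 12 libraries comprised 3 per group. No source states whether these came from separate cultures, so p-values measure only the spread between these libraries. The authors deposited raw fragment counts per gene with the exonic length; per the labels and file header, HISAT2 (version 2.1.0) aligned the reads to GRCh38, and featureCounts (version 1.6.2) counted them on GENCODE version 28, using strand, both ends aligned and a mapping quality of at least 10. Fragments aligned to several places or genes were not counted.

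The fit took 15836 genes of at least 300 nt that exceeded 1 CPM in 2 libraries or more. The study's methods can be read as keeping genes under 300 nt, which was tried as well. Under R 4.3.3, edgeR 4.0.16 was run over all libraries with TMM factors, 1 mean per group and the quasi-likelihood test; calls needed an adjusted p no higher than 0.01. DESeq2 1.42.0 was an alternative. Total counts of 10257586 to 19725543 limit precision for weak genes. Biotypes and GC content came from GENCODE version 44, which held 861 of the 866 genes.

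The genes, lists and tests were chosen with earlier results of these data known. Named genes were CD44, the 6 lowest and 6 highest in MDA-MB-231 at 5 CPM or more, those called in Hs578T at 5 CPM or more with separate groups, 5 tested genes on each side of CD44, the 6 highest by RPKM and the 2 highest of each list; any other gene was picked with its values in view. The main edgeR settings were also run on simulated counts, and the alternative fits were not.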

Additional observations from a re-analysis of the deposited data

Results flagged for a closer look

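For 11 named genes, the CD44 KO libraries all lay above CD44 WT in Hs578T and all below it in MDA-MB-231. The same held for 37 tested genes of the stretch (16.4%), beside 2.61% of all genes tested. Some genes were named for low MDA-MB-231 values or for Hs578T calls with separate groups. The count of 11 therefore follows in part from how genes were named. The difference between the lines was not tested, and the MDA-MB-231 values are those the stretch was chosen by. The log2 fold changes in Hs578T and MDA-MB-231 were 1.31 and -0.65 for STK33, 0.87 and -0.58 for CYP2R1, and 0.47 and -0.79 for CD81, the 3 that passed the test in Hs578T. SVIP stood at 0.39 and -2.56 and its neighbour FANCF at 0.36 and -1.45. The genes next to CD44 stood at 0.31 and -0.21 for APIP, 0.29 and -0.34 for PDHX, and 0.23 and -0.43 for CAT. RPLP2 stood at 0.25 and -0.56, RRAS2 at 0.25 and -0.21, and TSG101 at 0.21 and -0.52.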

How the results depend on the processing

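Counts of called genes moved with the settings more than medians did. The genes tested changed with some settings, to 29625 in the whole table without a low-count filter. The counts below stand without the share of all genes called under each setting, so they do not single out the stretch. The MDA-MB-231 count of 79 lower genes was 42 with each line fitted alone, 21 with a log2 fold change of at least 1 and 55 to 90 with single libraries left out. The Hs578T count of 4 lower genes was 7 without a low-count filter, 9 with the threshold on the adjusted p at 0.05 and 4 to 5 with single libraries left out. The Hs578T count of 4 higher genes was 8 with DESeq2, 7 without a low-count filter and with each line fitted alone, 11 with that threshold at 0.05, 2 with a log2 fold change of at least 1, and 1 to 8 with single libraries left out. With genes under 300 nt only, 2 genes of the stretch were tested and each of these 3 counts was 0 by edgeR, with 0 at an unadjusted p under 0.05; their medians were -0.54 in MDA-MB-231 and 0.20 in Hs578T.

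Without a low-count filter, the medians were -0.33 in MDA-MB-231 and 0.030 in Hs578T over 427 genes, and the difference from the rest of the chromosome was -0.31 and -0.041. With single libraries left out, the medians were -0.58 to -0.53 and 0.059 to 0.10, the differences from the rest -0.54 to -0.50 and -0.0092 to 0.039, and the medians of the high-expression group -0.52 to -0.49 and 0.062 to 0.10. Removal of the GC trend and restriction to protein-coding genes were chosen after seeing the data. Without the trend on transcript GC, the high-expression group had a median of -0.49 in MDA-MB-231 and the 5 Mb windows from the telomere had medians of -0.65, -0.59, -0.39, -0.51, -2.08, -0.50 and -0.44. No MDA-MB-231 median of the stretch changed sign under any setting run.

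A replicate block was fitted by the number in the sample titles, with the MDA-MB-231 CD44 WT library without a clear number taken as 2 by elimination. With it, 69 genes were called lower in MDA-MB-231 and 4 lower and 4 higher in Hs578T. Deviations of libraries with the same number correlated at -0.06, 0.02 and -0.10 in Hs578T. In MDA-MB-231 they correlated at 0.01, 0.10 and 0.16, the middle value with the library numbered by elimination. The column headers number the Hs578T libraries in another order. They place CD44 WT replicates 1, 2 and 3 beside CD44 KO replicates 2, 3 and 1, whose deviations correlated at 0.03, 0.10 and 0.13. Whether libraries were handled in pairs is not stated, and a block by the header order was not fitted.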

Other observations

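HRAS, a small GTPase of growth factor signalling, was not tested. It was counted 209 times in Hs578T CD44 WT replicate 2 and 0 to 12 times in each of the other libraries. PHRF1, which lies nearby with other genes between, was counted between 1 and 59 times per library, with 59 in Hs578T CD44 KO replicate 2. Fragments with low mapping quality were not counted, and what part that has in these values was not tested.

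PPFIBP2, a liprin that binds at cell contacts, was chosen after its values were seen. It was counted 91, 89 and 92 times in MDA-MB-231 CD44 WT and 9, 18 and 13 times in CD44 KO, and 70 to 123 times in each Hs578T library. Its mean of 4.38 CPM in MDA-MB-231 kept it below the level set for named genes.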
